A study of Mus musculus with 12 samples.

Results

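The 10 genes described here, Cldn5, Pecam1, Cdh5, Flt1, Kdr, Tek, Slc2a1, Abcb1a, Ly6c1 and Sox17, mark the endothelial cells that line the vessels of the brain or carry the barrier that these cells form. They were taken by symbol from the table of raw counts, where they are 10 of 24062 gene symbols, and all 10 were among the 15440 genes that had enough counts to be tested. The libraries were made from cortex of mice aged 9 months, in 4 groups of 3 mice with 1 library per mouse. WT mice carried neither change. Tia1+/- mice had 1 functional allele of Tia1, which encodes an RNA-binding protein of stress granules, and came from a knock-out line backcrossed to C57BL/6J. PS19 mice, named P301S in the deposited titles, carried a human tau transgene with the P301S mutation under the Prnp promoter and had both Tia1 alleles. P301S Tia1+/- mice carried the same transgene and 1 functional Tia1 allele. Per the study, PS19 mice, a strain of mixed B6 and C3 origin, were bred with the knock-out line. Offspring with and without the transgene were then crossed, which gave PS19 and P301S Tia1+/- littermates of the same background. Mice with end-stage symptoms had been left out by the study, and the sources used here mention no pooling of animals.

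Endothelial cells of the brain are sealed to each other by tight junctions and pass few vesicles, so that nutrients enter through dedicated transporters and many drugs are pumped back into the blood. This state is set up by Wnt signals from the surrounding tissue and is maintained together with pericytes and astrocytes. Vessels make up a small part of cortex, so in RNA from whole tissue a lower count of these genes can come from fewer endothelial cells or from less RNA per cell, and these cannot be told apart.

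The sequence just upstream of 3 of the genes is shown because the counts of Cldn5 and Kdr moved together across the 12 libraries (Pearson r = 0.823), while Tek ran less closely with Cldn5 (r = 0.131) than with Kdr (r = 0.559). The windows are the 250 bases before the start of the gene in RefSeq on GRCm38.p6, read 5′ to 3′ on the strand of the gene. Capitals mark a GC box (GGGCGG, or CCGCCC where it lies on the other strand) in Cldn5 and Kdr and a SOX motif (ATTGTT) in Tek. The Cldn5 window is chr16:18776597-18776846 on the plus strand, the Kdr window chr5:75978456-75978705 on the minus strand and the Tek window chr4:94739039-94739288 on the plus strand.
Cldn5: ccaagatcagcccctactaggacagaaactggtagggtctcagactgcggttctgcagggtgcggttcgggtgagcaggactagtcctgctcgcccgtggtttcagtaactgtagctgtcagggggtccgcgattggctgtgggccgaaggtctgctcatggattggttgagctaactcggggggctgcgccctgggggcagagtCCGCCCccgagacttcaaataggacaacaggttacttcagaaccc
Kdr: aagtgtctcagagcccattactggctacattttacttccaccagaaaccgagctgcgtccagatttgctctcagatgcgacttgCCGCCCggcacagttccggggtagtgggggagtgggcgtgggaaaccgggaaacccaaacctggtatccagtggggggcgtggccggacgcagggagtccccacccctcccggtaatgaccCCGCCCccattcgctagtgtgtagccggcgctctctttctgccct
Tek: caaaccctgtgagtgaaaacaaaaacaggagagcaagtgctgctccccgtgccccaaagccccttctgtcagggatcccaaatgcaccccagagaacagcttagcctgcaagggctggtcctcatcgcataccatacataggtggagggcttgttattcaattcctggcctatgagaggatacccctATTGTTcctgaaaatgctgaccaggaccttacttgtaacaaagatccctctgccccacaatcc

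In both Cldn5 and Kdr a GC box began 45 bases before the gene start, and Kdr held another that began at 166 bases. The position was not particular to this pair, since Slc2a1 also held a GC box from 45 bases, with an r of 0.179 with Cldn5 and -0.217 with Kdr, and Flt1 held 3 GC boxes, with an r of 0.025 with Cldn5. Abcb1a had an r of 0.814 with Cldn5 and 0 GC boxes in its window. The closest of the 45 pairs, Pecam1 with Sox17 (r = 0.887), had no window. The SOX motif of Tek began at 63 bases. RefSeq windows were found for 7 of the 10 genes. A GC box was present on either strand in 4 of these 7 and in 32.7% of all 32851 windows of the same length, and ATTGTT was present in 1 of 7 and in 9.42% of all windows. AGGAAG, a core bound by ETS factors, was present in 3 of 7 and in 29.5% of all windows, CTTTGA, bound by TCF and LEF factors, in 1 of 7 and 13.8%, and TATAAA in 2 of 7 and 12.4%. These shares describe letters in the windows and not binding. The AGGAAG and CTTTGA of Abcb1a lay in a window (chr5:8566841-8567090) whose start was not found in the transcripts used here. The same held for the Ly6c1 window with TATAAA, and Ly6c1 was read over 2 windows.

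The libraries held between 11978962 and 19146484 counts each. Endothelial RNA was present in every library, since each of the 10 genes was counted in all 12, with between 27 and 1638 counts per library. Counts of Tia1 itself gave means of 82.0 ± 10.3 for WT, 68.0 ± 10.3 for Tia1+/-, 73.5 ± 3.87 for PS19 and 74.7 ± 2.76 for P301S Tia1+/- (SD, n = 3), in CPM, which are counts scaled to a library of 1 M. They did not separate the genotypes (adjusted p = 0.239 for Tia1+/- with WT and 0.934 for P301S Tia1+/- with PS19 in edgeR's quasi-likelihood test), and because they cover the whole gene they may include reads from parts that the knock-out allele keeps. Libraries were placed by their titles. In the submitters' genotype field the labels of the Tia1+/- mice with and without the transgene are exchanged. Had that field been followed, the sign of P301S Tia1+/- with Tia1+/- would turn, and every other comparison that uses either group would set other mice against each other, so all but PS19 with WT rest on the titles. Xist was at 217 to 367 CPM and the Y-linked Ddx3y at 0 to 0.119 CPM in the 6 libraries of both Tia1+/- groups, whereas in the 6 WT and PS19 libraries Xist was at 0 to 0.783 CPM and Ddx3y at 119 to 169 CPM. Sex-linked expression and the Tia1 genotype therefore cannot be told apart in any comparison of Tia1+/- with Tia1+/+ mice below. The study states that male mice were used except where noted. It reads the Xist and Y-linked difference between Tia1+/- and WT as regulation of these genes by TIA1. In further, younger mice it reports higher Xist in Tia1+/- of both sexes and lower Ddx3y in Tia1+/- males.

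The genes spanned a wide range of levels. Slc2a1, the glucose transporter GLUT1, which astrocytes also make, was the highest at a median of 24.0 CPM per kb of exon over the 12 libraries (20.6 to 29.9), and it was above Ly6c1 in 12 of 12 libraries and above Cldn5 in 11 of 12, the exception being P301S Tia1+/- replicate 3. Ly6c1, a surface protein of the Ly6 family, followed with a median of 14.1 CPM per kb (11.8 to 15.9). Cldn5, the main claudin of the tight junctions of the brain, had a median of 12.8 CPM per kb (10.4 to 28.0), and Ly6c1 was above it in 6 of 12 libraries, so these 2 neighbours were not separated. Abcb1a, the drug efflux pump P-glycoprotein, had a median of 7.04 CPM per kb (5.92 to 9.90), below Cldn5 and above Tek in every library. The remaining 6 genes lay between 0.479 and 3.60 CPM per kb, in the order Tek (median 2.99), Pecam1 (2.63), Flt1 (1.83), Cdh5 (1.4), Kdr (0.916) and Sox17 (0.634), and the ranges of each overlapped those of the next.

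**Figure D1:**
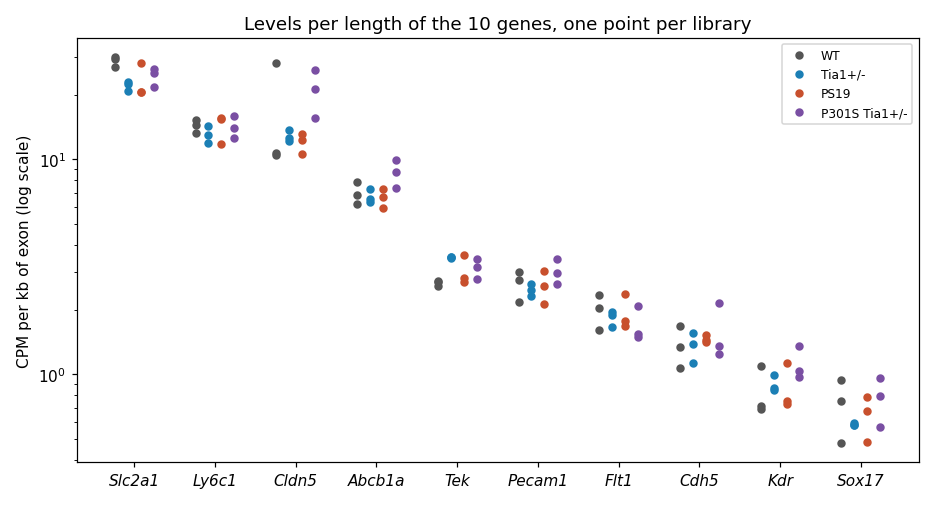
Level of each of the 10 genes in CPM per kb of exon (log axis), with 1 point for each of the 12 libraries and 1 colour for each group, ordered by median from left to right. Slc2a1 has the highest median, 24.0, Ly6c1 and Cldn5 overlap, and the spread of Cldn5 from 10.4 to 28.0 is the widest in proportion of the 10.

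Some counts may hold reads of neighbours or copies. Of the stretches of 50 bases in the transcripts, 32.8% of those of Ly6c1 were also in another gene (21.5% in Ly6c2, which was counted at 0.957 to 1.27 CPM as a group mean) and 22.5% of those of Abcb1a (16.3% in Abcb1b, at 5.30 to 7.14 CPM). Sox17 shared 15.0% with Gm37587, which overlaps it on the opposite strand. Slc2a1 and Abcb1a also overlap a gene on the opposite strand (Gm12868 and Gm42686), and the strand setting of the counting is not given in the sources used here. Cldn5, Kdr, Tek and Cdh5 shared no such stretch.

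Cldn5 (chr16:18776847-18778262, a single exon on GRCm38) differed most between libraries, by 2.69-fold from the lowest to the highest. It was at 39.7, 15.1 and 14.8 CPM in WT replicates 1 to 3, at 17.2, 19.4 and 17.8 CPM in Tia1+/-, at 17.4, 18.6 and 15.1 CPM in PS19 and at 22.1, 29.9 and 36.9 CPM in P301S Tia1+/-. The highest library was thus WT replicate 1, which was 2.66 times the mean of the other two WT libraries, and the next 3 were the 3 P301S Tia1+/- libraries. The other 8 libraries lay between 14.8 and 19.4 CPM.

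The other junction genes varied less. Pecam1 (chr11:106654217-106750628), an adhesion molecule of endothelial cell contacts also made by some blood cells, ran from 13.3 CPM in PS19 replicate 2 to 21.5 CPM in P301S Tia1+/- replicate 3, with group means of 16.4 ± 2.60 (WT), 15.4 ± 1.03 (Tia1+/-), 16.1 ± 2.81 (PS19) and 18.7 ± 2.58 (P301S Tia1+/-). Cdh5 (chr8:104101625-104144511), the VE-cadherin of adherens junctions, ran from 4.48 CPM in WT replicate 2 to 8.98 CPM in P301S Tia1+/- replicate 3, with group means between 5.70 and 6.63 CPM. For both genes all 4 groups overlapped.

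Among the receptors, Kdr (chr5:75932827-75978458), the main signalling receptor for VEGF-A, was at 9.85, 6.43 and 6.24 CPM in WT, 7.66, 8.93 and 7.80 CPM in Tia1+/-, 6.75, 10.2 and 6.56 CPM in PS19 and 8.74, 9.36 and 12.2 CPM in P301S Tia1+/-. Its groups overlapped, and WT replicate 1 was again above the other WT libraries, at 1.55 times their mean. Flt1 (chr5:147561604-147726011), which binds VEGF and limits its action on Kdr, ran from 20.1 CPM in P301S Tia1+/- replicate 1 to 31.9 CPM in PS19 replicate 2, with a median of 24.7 CPM over the 12 libraries and group means of at most 26.9 CPM. Tek (chr4:94739289-94874976), the receptor for angiopoietins, was at 12.7, 12.1 and 12.8 CPM in WT, 16.6, 16.4 and 16.5 CPM in Tia1+/-, 12.7, 17.0 and 13.2 CPM in PS19 and 13.0, 14.9 and 16.2 CPM in P301S Tia1+/-. The 3 Tia1+/- libraries had almost the same Tek level and lay above all WT libraries, while PS19 held the highest single library.

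Of the transport genes, Slc2a1 (chr4:119108711-119137983) was at 102, 94.5 and 105 CPM in WT, 79.9, 73.1 and 78.2 CPM in Tia1+/-, 72.3, 72.3 and 98.7 CPM in PS19 and 76.3, 92.2 and 88.5 CPM in P301S Tia1+/-. WT was the highest group, with only PS19 replicate 3 reaching into its range. Abcb1a (chr5:8660077-8748575) was at 43.0, 34.1 and 37.4 CPM in WT, 35.9, 34.6 and 39.8 CPM in Tia1+/-, 32.4, 39.9 and 36.5 CPM in PS19 and 40.2, 47.7 and 54.2 CPM in P301S Tia1+/-. All 3 P301S Tia1+/- libraries were above all PS19 and all Tia1+/- libraries, but the lowest of them was below WT replicate 1.

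Ly6c1 (chr15:75044018-75048830) was the steadiest of the 10, with 1.35-fold between its lowest and highest library. Its group means were 24.1 ± 1.66 CPM (WT), 21.9 ± 1.97 CPM (Tia1+/-), 23.9 ± 3.51 CPM (PS19) and 23.8 ± 2.80 CPM (P301S Tia1+/-). Sox17 (chr1:4490931-4497354), a transcription factor of arterial endothelium, was the scarcest per length, between 2.28 and 4.58 CPM with 27 to 77 counts per library, and its groups overlapped throughout.

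**Figure D2:**
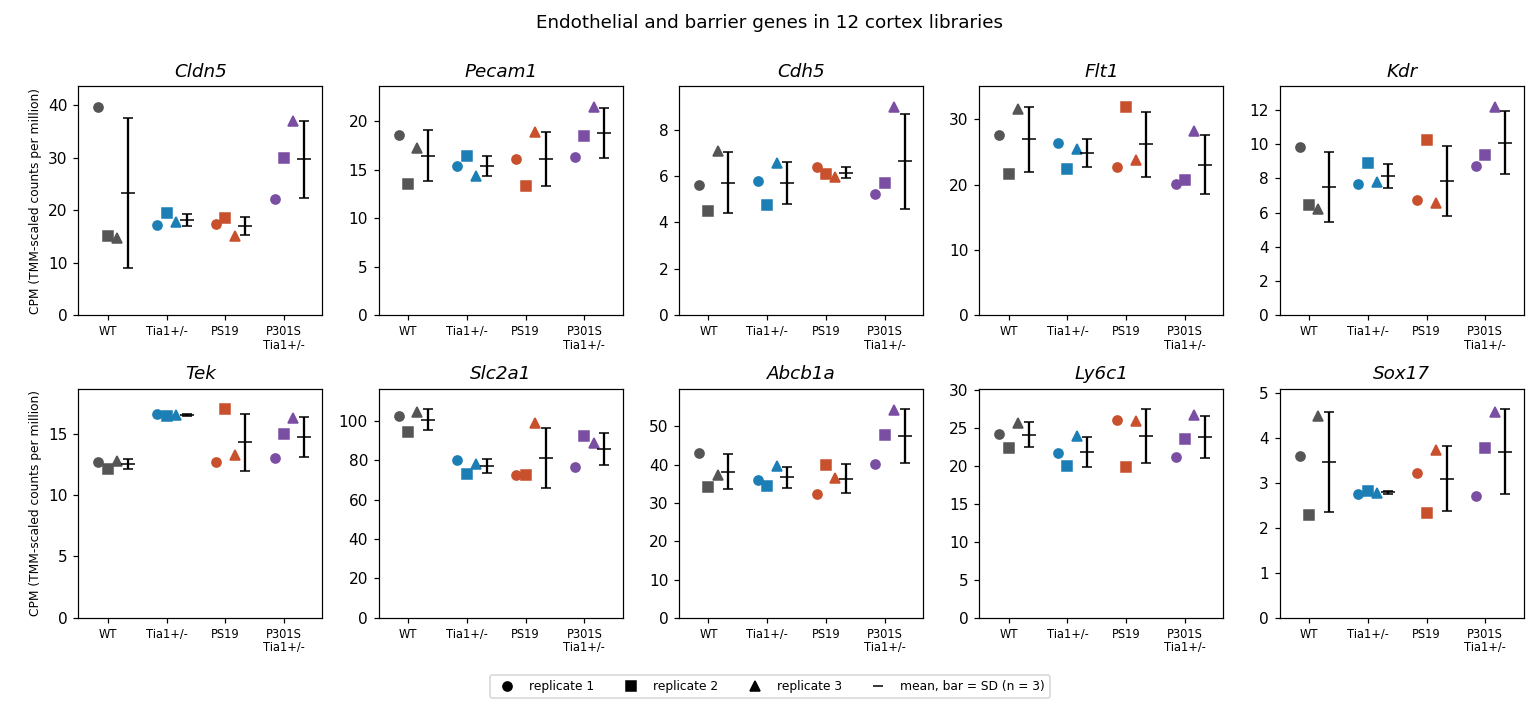
CPM of each of the 10 genes (linear axes from 0, 1 panel per gene) in the 12 libraries, with 1 marker shape per replicate number, 1 colour per group, and the group mean with its SD (n = 3) as a bar. In Cldn5 WT replicate 1 at 39.7 CPM stands apart from the other WT libraries at 15.1 and 14.8, and the P301S Tia1+/- libraries lie between 22.1 and 36.9.

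The first comparison asked how the tau transgene changed these genes in mice with both Tia1 alleles. No gene of the 10 passed the threshold between PS19 and WT (adjusted p under 0.05 over the 15440 genes, edgeR's quasi-likelihood test), and DESeq2's Wald test called none either, beside 0% of all genes called by edgeR. At an unadjusted p under 0.05 there was 1 of 10, beside 16.3% of all genes. This was Slc2a1, at a log2 difference of -0.31 (SE 0.124, 95% interval -0.58 to -0.037, adjusted p = 0.263). The median difference of the 10 genes was -0.037, beside -0.0066 over all genes tested, 3 of 10 were above 0 (49% of all genes), and the groups overlapped in all 10, whereas they did not in 20.8% of all genes (9.75% with PS19 higher). Cldn5 was at -0.45 (SE 0.336, adjusted p = 0.523) and turned to 0.19 without WT replicate 1. For 9 of 10 genes the 95% interval lay within a 2-fold difference in either direction, Cldn5 being the exception at -1.19 to 0.29.

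A wider set of 87 tested vascular genes, which excludes the 10, was read beside them. It covers tight junctions, transporters, vascular ligands and receptors, endothelial transcription factors, the Wnt pathway of the barrier, endothelial identity, leaky or inflamed endothelium and mural cells. Between PS19 and WT edgeR called 0 of 87 and DESeq2 3 (Wnt7b, Eltd1 and Vegfa), where DESeq2 called 2.88% of all genes. At an unadjusted p under 0.05 there were 12 of 87 (13.8%), 4 higher and 8 lower, beside 16.3% of all genes. Wnt7b, a Wnt ligand that neural cells send to endothelium, was at a log2 difference of 1.08 (SE 0.230, adjusted p = 0.157 in edgeR), with 13.8 ± 3.0 CPM in WT and 29.1 ± 5.36 in PS19. Vegfa, the VEGF ligand of Kdr and Flt1, was at -0.39 (SE 0.0989, adjusted p = 0.160), and Eltd1, an adhesion G protein-coupled receptor of endothelium now named Adgrl4, at -0.59 (SE 0.150, adjusted p = 0.160). Among tight junction genes, the smallest p belonged to Jam2, a junctional adhesion molecule, at -1.11 (SE 0.402, adjusted p = 0.229), which was -0.31 without WT replicate 1.

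The second comparison asked how the loss of 1 Tia1 allele changed the genes in mice with the tau transgene. No gene of the 10 passed the threshold between P301S Tia1+/- and PS19 with edgeR or DESeq2, beside 0.24% of all genes called by edgeR, and 2 of 10 had an unadjusted p under 0.05, beside 19.3% of all genes. Cldn5 was at a log2 difference of 0.81 (SE 0.334, 95% interval 0.070 to 1.54, adjusted p = 0.227), with 29.7 ± 7.40 CPM in P301S Tia1+/- and 17.0 ± 1.78 in PS19. Abcb1a was at 0.39 (SE 0.130, 95% interval 0.10 to 0.67, adjusted p = 0.163), with 47.4 ± 7.04 and 36.3 ± 3.77 CPM. These were also the 2 of 10 genes whose P301S Tia1+/- libraries were all above the PS19 libraries, a pattern that 20.2% of all genes showed. In a fit of only the 6 libraries compared, Cldn5 passed (adjusted p = 0.0115), and that fit called 3025 genes in all instead of 37.

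The remaining 8 genes had differences from -0.18 (Flt1) to 0.37 (Kdr) and adjusted p from 0.391 to 0.976. The median of the 10 was 0.16, beside 0.0097 over all genes, and 8 of 10 were above 0, beside 51.5% of all genes. Leaving out P301S Tia1+/- replicate 3 lowered this median to 0.059 and the Cldn5 difference to 0.62.

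**Figure D3:**
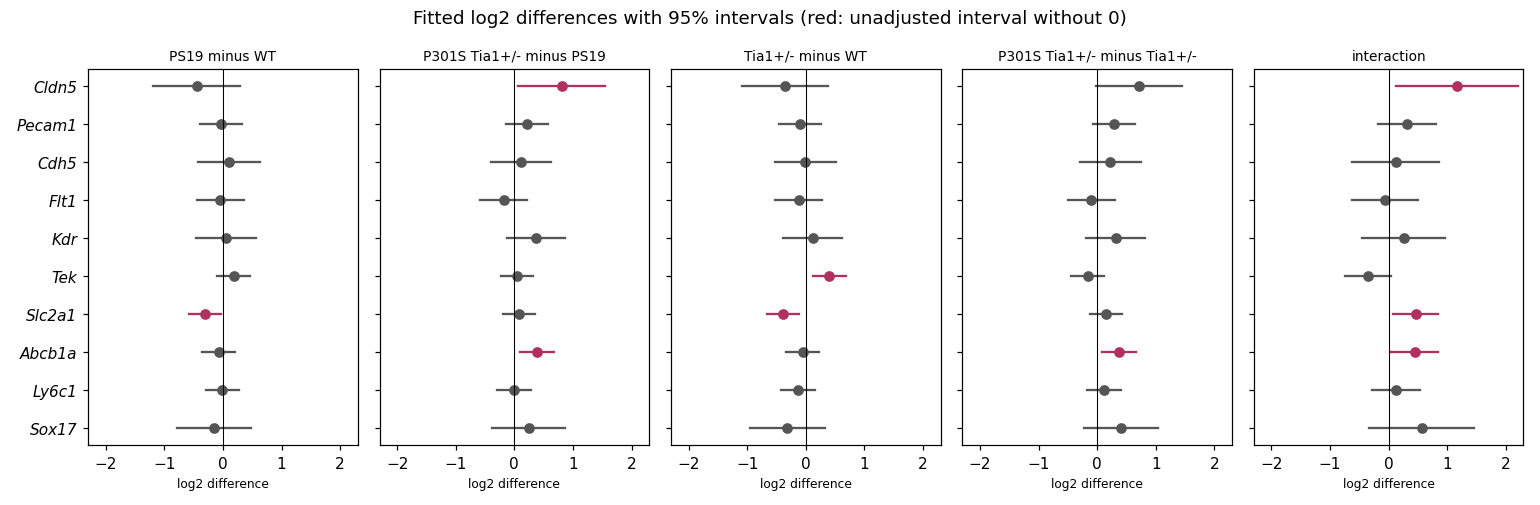
Log2 difference of each of the 10 genes in the 5 comparisons (1 panel each), with the 95% interval of the fit as a horizontal line, and in red the unadjusted intervals without 0. Red intervals are found for Slc2a1 in 3 panels, Abcb1a in 3, Cldn5 in 2 and Tek in 1, and none of these genes passed an adjusted p of 0.05.

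The P301S Tia1+/- libraries and WT replicate 1 shared more than their Cldn5 level. The same 4 libraries were the 4 highest for Jam2 (104 to 149 CPM, with at most 67.1 in the other 8) and for Omp, the olfactory marker protein, which was chosen after its values were seen (72.6 to 162 CPM, with at most 18.9 in the other 8). S100a5 and Stoml3, which are also known from olfactory tissue, had the same 4 libraries on top. The list of 6 meningeal fibroblast markers summed to 147 CPM in WT replicate 1 and to 201 CPM in P301S Tia1+/- replicate 3, with all 6 counted. The sum ran from 30.7 to 147 CPM among WT libraries, from 16.4 to 42.8 among Tia1+/-, from 19.3 to 49.5 among PS19 and from 26.0 to 201 among P301S Tia1+/-. At 26.0 CPM, P301S Tia1+/- replicate 1 was below WT replicates 2 and 3 (30.7 and 31.0 CPM). The meningeal list thus did not set all 4 libraries apart. Over the 12 libraries, Cldn5 followed this list with a Pearson r of 0.864, given as a description without a test, since the libraries share their groups. The part of these tissues in the Cldn5, Abcb1a and Jam2 levels was not tested. With WT replicate 1 and P301S Tia1+/- replicate 3 both left out, Cldn5 was at 0.62 and Abcb1a at 0.28 in P301S Tia1+/- with PS19 (adjusted p = 0.290 and 0.238). This fit does not separate olfactory RNA from the groups. WT replicate 1 is in neither of them, and P301S Tia1+/- replicates 1 and 2 held Omp at 72.6 and 135 CPM. Omp was at most 0.560 CPM in PS19.

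In the wider vascular set, edgeR called 0 of 87 genes between P301S Tia1+/- and PS19 and DESeq2 4 (Slco1a4, Pltp, Itm2a and Jam2, beside 5.53% of all genes), and 17 of 87 (19.5%) had an unadjusted p under 0.05, 13 higher and 4 lower, beside 19.3% of all genes. Without WT replicate 1 and P301S Tia1+/- replicate 3 together, edgeR called 5 of 87 (Apcdd1, Itm2a, Jam2, Slco1a4 and Vtn) and 472 genes in all. Slco1a4, an organic anion transporter of the barrier, was at a log2 difference of 0.58 (SE 0.114, adjusted p = 0.0691 in edgeR), with 66.7 ± 2.98 CPM in P301S Tia1+/- and 44.8 ± 5.86 in PS19. Pltp, a phospholipid transfer protein, was at 0.52 (SE 0.106, adjusted p = 0.0728) and Jam2 at 1.58 (SE 0.405, adjusted p = 0.106). Plvap, the diaphragm protein of leaky vessels, was at -0.53 (SE 0.162, adjusted p = 0.142), with 4.99 ± 0.482 and 7.19 ± 0.866 CPM. The list of 6 choroid plexus markers also summed lower, to 5.74 ± 3.55 CPM in P301S Tia1+/- and 23.5 ± 19.8 CPM in PS19. The groups did not overlap in this sum, although of the 4 markers tested 2 were lower and 2 higher. The part of choroid plexus in the Plvap difference was not tested. Of the 12 genes of the Wnt barrier list, the smallest p belonged to Ndp, which encodes the ligand norrin (log2 difference 0.83, SE 0.279, adjusted p = 0.164). The smallest p of the receptors and ligands belonged to the neuropilin Nrp1 (-0.32, adjusted p = 0.221), that of mural cells to Vtn, which encodes vitronectin (0.76, adjusted p = 0.212), and that of the transcription factors to Foxq1 (0.55, adjusted p = 0.434, and 0.31 without P301S Tia1+/- replicate 3).

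The third comparison asked what the loss of 1 Tia1 allele did without the tau transgene. Between Tia1+/- and WT no gene of the 10 passed the threshold with edgeR or DESeq2, beside 0.712% of all genes called by edgeR, and 2 of 10 had an unadjusted p under 0.05, beside 19.1% of all genes (8.63% in the higher direction, where 1 of 10 lay). Tek was at a log2 difference of 0.40 (SE 0.128, 95% interval 0.12 to 0.68, adjusted p = 0.132) and Slc2a1 at -0.38 (SE 0.124, 95% interval -0.66 to -0.11, adjusted p = 0.135). In both genes the groups did not overlap, as in 20% of all genes (9.6% with Tia1+/- higher), and the differences ran from 0.37 to 0.42 for Tek and from -0.42 to -0.34 for Slc2a1 with any 1 library left out. The other 8 genes lay between -0.36 (Cldn5) and 0.12 (Kdr), with adjusted p from 0.586 to 0.990. Cldn5 turned to 0.29 without WT replicate 1. The median of the 10 was -0.11, beside 0.0057 over all genes, and 2 of 10 were above 0, beside 50.7%.

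In the wider set, edgeR called 0 of 87 between Tia1+/- and WT and DESeq2 5 (Eltd1, Pdgfb, Slco1c1, Vegfa and Wnt7b), where DESeq2 called 6.33% of all genes. At an unadjusted p under 0.05 there were 12 of 87 (13.8%), 3 higher and 9 lower, beside 19.1% of all genes. Slco1c1, a thyroid hormone transporter of the barrier that astrocytes also make, had the smallest adjusted p, with a log2 difference of -0.47 (SE 0.109, adjusted p = 0.0696 in edgeR) and 49.7 ± 0.879 CPM in Tia1+/- against 69.0 ± 7.51 in WT. Pdgfb, the endothelial ligand that recruits pericytes, was at -0.59 (SE 0.155, adjusted p = 0.0884), while its pericyte receptor Pdgfrb was at 0.65 (SE 0.206, adjusted p = 0.129). Without WT replicate 3 both passed in edgeR, Pdgfb at -0.69 (adjusted p = 0.0451) and Pdgfrb at 0.92 (adjusted p = 0.0382). That fit called 497 genes in all, where the main fit called 110. Eltd1 was at -0.60 (SE 0.150, adjusted p = 0.0821) and Wnt7b at 0.73 (SE 0.230, adjusted p = 0.126), both of the same sign as in PS19 with WT, a comparison that shares the WT libraries. Without Tia1+/- replicate 3 the Wnt7b difference was 0.47. This library also stood apart in striatal genes, with 1159 CPM summed over 6 striatal markers against at most 193 CPM in the other 11 libraries. The part of this in the comparison was not tested.

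The fourth comparison set P301S Tia1+/- against Tia1+/-, groups that were alike in Xist and Ddx3y and that the genotype field exchanges. The groups were not alike in Omp, which was at 72.6 to 135 CPM in P301S Tia1+/- and at 0.828 to 2.83 CPM in Tia1+/-. Tia1+/- replicate 3 also held the striatal markers at 1159 CPM. The part of these tissues in this comparison was not tested. With edgeR and DESeq2 0 of 10 genes passed, beside 0% of all genes with edgeR, and 1 of 10 had an unadjusted p under 0.05, beside 15.6% of all genes (8.92% in the higher direction). This was Abcb1a, at a log2 difference of 0.37 (SE 0.130, 95% interval 0.082 to 0.65, adjusted p = 0.243). Cldn5 was at 0.71 (SE 0.333, 95% interval -0.024 to 1.44, adjusted p = 0.333). The P301S Tia1+/- libraries were all above the Tia1+/- libraries for Cldn5 and Abcb1a and all below them for Tek (-0.16, adjusted p = 0.547), beside 26% of all genes without overlap. The median of the 10 was 0.25, beside 0.0064 over all genes, and 8 of 10 were above 0, beside 51.1%. In the wider set edgeR called 0 of 87 and DESeq2 1, Slco1a4 (log2 difference 0.48, SE 0.114, adjusted p = 0.178 in edgeR), where DESeq2 called 2.62% of all genes, and 19 of 87 (21.8%) had an unadjusted p under 0.05, 16 higher and 3 lower, beside 15.6% of all genes. The replicate numbers were correlated in their deviations in these groups (3 of 3 pairs above 0.1). A fit of these 6 libraries with the replicate number as a block called 3 of 87 (Apcdd1, Cgnl1 and Vtn), and without the block 1 (Slco1a4). These fits called 145 and 334 genes in all. Without WT replicate 1 and P301S Tia1+/- replicate 3 together 1 of 87 was called (Jam2), and 229 genes in all. Ndp was at 0.97 (SE 0.280, adjusted p = 0.195), Jam2 at 1.24 (SE 0.400, adjusted p = 0.220) and the pericyte gene Rgs5 at 0.27 (SE 0.0868, adjusted p = 0.218).

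The interaction is the difference between the effect of the lost Tia1 allele with the transgene and its effect without it. With edgeR and DESeq2 0 of 10 genes passed, beside 0.00648% of all genes with edgeR, and 3 of 10 had an unadjusted p under 0.05, beside 22.9% of all genes (13.6% in the higher direction). These were Cldn5 at 1.16 (SE 0.473, 95% interval 0.12 to 2.20, adjusted p = 0.181), Slc2a1 at 0.46 (SE 0.175, 95% interval 0.078 to 0.85, adjusted p = 0.156) and Abcb1a at 0.44 (SE 0.184, 95% interval 0.037 to 0.85, adjusted p = 0.188). The Cldn5 value was 0.51 without WT replicate 1. The median of the 10 was 0.28, beside 0.0049 over all genes, with 8 of 10 above 0, beside 50.5%, and the median was 0.057 with WT replicate 1 and P301S Tia1+/- replicate 3 both left out. In the wider set edgeR called 0 of 87 and DESeq2 10 (Apcdd1, Cgnl1, Eltd1, Gpr124, Jam2, Ndp, Slco1a4, Slco1c1, Vegfa and Vtn), where DESeq2 called 8.06% of all genes. At an unadjusted p under 0.05 there were 21 of 87 (24.1%), 17 higher and 4 lower, beside 22.9% of all genes. Jam2 had 2.35 (SE 0.567, adjusted p = 0.0711), Eltd1 0.87 (SE 0.212, adjusted p = 0.0711), Slco1c1 0.59 (SE 0.154, adjusted p = 0.0801) and Vegfa 0.52 (SE 0.140, adjusted p = 0.0837) in edgeR. Jam2 passed in edgeR at 1.54 without WT replicate 1 (adjusted p = 0.0291), at 2.68 without Tia1+/- replicate 3 (0.0457) and at 2.60 without WT replicate 3 (0.0260). In this order, these fits called 243, 408 and 1035 genes in all for the interaction, where the main fit called 1.

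Across the 12 libraries the 10 genes did not move as a single block. The 45 pairs had a median Pearson r of 0.296 on log2 CPM, from -0.519 to 0.887, with 38 of 45 above 0. With the group means removed the median was 0.393, with 40 of 45 above 0. Cldn5 ran with Abcb1a (r = 0.814) as closely as with Kdr, whereas Tek had an r of 0.066 with the mean of the other 9 genes. The libraries share their 4 groups, so these values are descriptions.

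The mean of the 10 genes followed the mural list (r = 0.881) and the list of endothelial identity genes (r = 0.842) over the 12 libraries. Next came the lists of endothelial transcription factors (r = 0.827), meningeal fibroblasts (r = 0.791) and barrier transporters (r = 0.782). The mean did not follow the neuronal list (r = 0.0020). The 10 tested genes whose log2 CPM ran most like the standardised mean of the 10 were Cpxm1 (r = 0.955), Uckl1os, Lamb2, Cd151, Bmp4, Slc22a20, Hmcn1, Bglap2, Cnn2 and Adh1 (r = 0.880). Lamb2 encodes a laminin chain of vessel basement membranes and Bmp4 a secreted signalling protein. P301S Tia1+/- replicate 3 was the highest library of the 12 for 6 of the 10 genes.

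**Figure D4:**
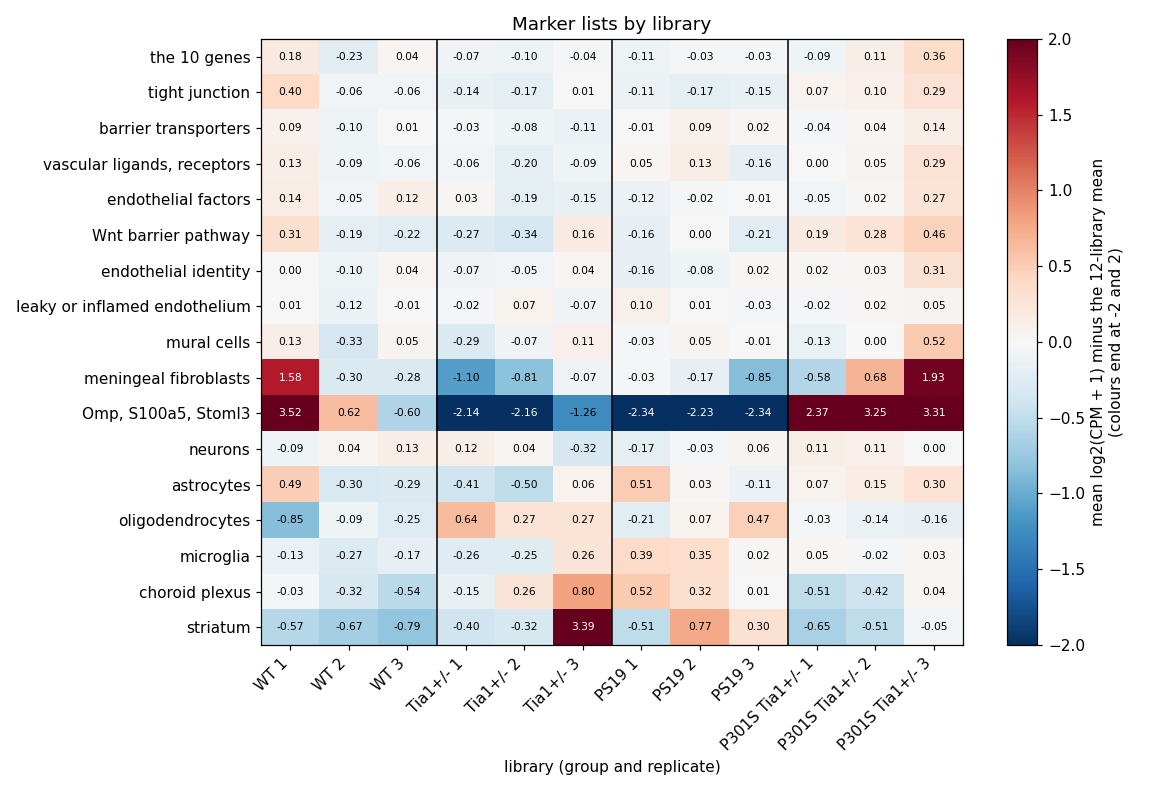
Mean log2(CPM + 1) of each marker list in each library minus its mean over the 12 libraries, with libraries in columns, lists in rows and colours that end at -2 and 2. The mean of the 10 genes stays between -0.23 and 0.36 and does not show the wider spread of Cldn5. The meningeal fibroblast list and Omp, S100a5 and Stoml3 reach 1.93 and 3.52, and the striatal list reaches 3.39 in Tia1+/- replicate 3.

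Of the 5 blood markers, the globin genes Hba-a1, Hba-a2, Hbb-bs and Hbb-bt had 0 counts in every library. They form pairs of near-identical genes whose reads a counter may discard as multiply aligned, so they give no measure of blood left in the vessels, and the sum of 1.45 to 4.34 CPM was that of Alas2 alone. The adhesion molecules of inflamed endothelium Sele and Selp also had at most 3 counts in every library. The summed level of the 8 mural markers ran from 119 to 200 CPM, of the 5 astrocyte markers from 1559 to 2580 CPM and of the 5 microglial markers from 149 to 251 CPM. The 4 oligodendrocyte markers summed to 1517 to 2273 CPM in WT and 2617 to 3494 CPM in Tia1+/-. Their sums were 1914 to 3326 CPM in PS19 and 1984 to 2230 CPM in P301S Tia1+/-. All 4 were without overlap above WT in Tia1+/-, beside 9.6% of all genes. All 4 were also without overlap below Tia1+/- in P301S Tia1+/-, where 26% of all genes did not overlap in either direction. In edgeR 0 of 4 passed. In the interaction 4 of 4 had an unadjusted p under 0.05, all lower, beside 22.9% of all genes. Their part in the results above was not tested. The 5 microglial markers ran from 149 to 172 CPM in WT and from 194 to 251 CPM in PS19, so these groups did not overlap in this sum, and the part of this in the comparison of PS19 with WT was not tested.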

How the data were processed

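RNA from mouse cortex (100 ng per library) was made into libraries with a stranded total RNA kit. Per the labels and the study's methods, the authors aligned reads to mm10 with Bowtie and TopHat (the submitters' processing notes name TopHat2 2.0.6, and the methods a different version) and obtained the counts for each gene from featureCounts. The annotation, strand setting and treatment of multiply aligned reads are not given in the sources used here. The deposited values are raw counts per gene symbol.

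Groups follow the titles. The 10 genes and the wider lists were chosen with earlier results of these data known. Counts were normalized by TMM and tested with edgeR 4.0.16 (R 4.3.3; quasi-likelihood F test, 12 libraries fitted together with a mean per group, filterByExpr, Benjamini-Hochberg adjustment over 15440 genes within each comparison, threshold 0.05). SE and 95% intervals come from that fit. CPM are counts per 1 M after TMM. Depth was 11978962 to 19146484 counts per library, and errors cover counting and the spread between mice. Genes named from the wider lists are, per comparison, among the 4 of each list with the smallest p, and those called by DESeq2 1.42.0, or in some other fits, are named too. Olfactory genes were chosen after their values were seen. Positions, exon lengths and transcript sequences come from GENCODE M21 (GRCm38, the assembly of mm10), and promoter windows from RefSeq (GRCm38.p6).

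Alternatives were DESeq2's size factors and Wald test, no filter, at least 10 counts in every library, the 6 libraries compared, the replicate number as a block, and each library left out. A fit of 6 libraries with the block, and a fit without WT replicate 1 and P301S Tia1+/- replicate 3 together, were added after seeing the data. The main fit used no block, since the study's methods mention none. Of 18 pairs of libraries with the same replicate number, 7 had an r of their deviations above 0.1 (median -0.060, range -0.538 to 0.346). All 3 pairs of Tia1+/- with P301S Tia1+/- were above 0.1 (0.123, 0.134 and 0.240). With the block, 0 of the 10 genes were called in every comparison. On simulated data for PS19 with WT (15267 genes), 6 of 170 calls by edgeR and 30 of 212 by DESeq2 were of unchanged genes.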

Additional observations from a re-analysis of the deposited data

How the results depend on the processing

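Leaving out 1 library at a time, 0 of the 10 genes were called in any comparison (lowest and highest 0), and the median log2 difference of the 10 ran from -0.15 to 0.053 in PS19 with WT, 0.059 to 0.28 in P301S Tia1+/- with PS19, -0.20 to 0.0025 in Tia1+/- with WT, 0.14 to 0.37 in P301S Tia1+/- with Tia1+/- and 0.14 to 0.39 for the interaction. Of 648 values of single genes so obtained, 600 kept direction and side of the threshold, 43 changed sign and 5 came to pass the threshold. In PS19 with WT the genes that changed sign ran from -0.15 to 0.028 (Abcb1a), -0.043 to 0.30 (Cdh5), -0.68 to 0.19 (Cldn5), -0.20 to 0.099 (Flt1), -0.16 to 0.31 (Kdr), -0.065 to 0.11 (Ly6c1), -0.15 to 0.098 (Pecam1) and -0.38 to 0.091 (Sox17). In P301S Tia1+/- with PS19 they ran from -0.17 to 0.25 (Cdh5), -0.15 to 0.067 (Ly6c1), -0.023 to 0.22 (Slc2a1) and -0.061 to 0.16 (Tek). In Tia1+/- with WT they ran from -0.13 to 0.053 (Abcb1a), -0.15 to 0.19 (Cdh5), -0.59 to 0.29 (Cldn5), -0.25 to 0.021 (Flt1) and -0.21 to 0.015 (Pecam1). In P301S Tia1+/- with Tia1+/- Cdh5 ran from -0.068 to 0.36, and for the interaction the ranges were -0.17 to 0.26 (Cdh5), -0.24 to 0.077 (Flt1), -0.0056 to 0.45 (Kdr) and -0.015 to 0.21 (Ly6c1). Of these, Cldn5 turned only without WT replicate 1 and the other comparisons of Cldn5 and Abcb1a with P301S Tia1+/- kept their sign. A group with 2 libraries was assumed to vary like the others.

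Of 630 values under the other settings, 587 kept direction and side, 29 came to pass the threshold and 14 changed sign. In the fit of only the 6 libraries of P301S Tia1+/- and PS19, 1 of the 10 genes was called, Cldn5. Without WT replicate 1 and P301S Tia1+/- replicate 3 together the interaction median was 0.057, and the values that changed sign were, in PS19 with WT, Cldn5 0.19, Pecam1 0.078, Abcb1a 0.028 and Ly6c1 0.0064, in P301S Tia1+/- with PS19, Tek -0.027 and Cdh5 -0.17, in Tia1+/- with WT, Cldn5 0.29, Pecam1 0.015 and Abcb1a 0.053, in P301S Tia1+/- with Tia1+/-, Cdh5 -0.067, and for the interaction Kdr -0.16 and Cdh5 -0.16. Cdh5 in Tia1+/- with WT was 0.0044 without a filter and 0.0031 with the replicate block. The block left 0 of the 10 genes called in every comparison. It lowered the calls over all genes from 37 to 7 in P301S Tia1+/- with PS19, from 110 to 9 in Tia1+/- with WT and from 1 to 0 for the interaction. The fit of the 6 libraries of P301S Tia1+/- and Tia1+/- called 334 genes without the block and 145 with it, 0 of the 10 in either. Of the 87 wider genes these fits called 1 and 3.

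Calls over all genes depended on the tool. DESeq2 called 445 genes in PS19 with WT, 854 in P301S Tia1+/- with PS19, 978 in Tia1+/- with WT, 404 in P301S Tia1+/- with Tia1+/- and 1245 for the interaction, where edgeR called 0, 37, 110, 0 and 1. With only the 6 libraries compared these were 0, 3025, 6 and 334. At least 10 counts in every library gave 15 in P301S Tia1+/- with PS19 and 0 for the interaction, and no filter gave 73 in Tia1+/- with WT and 5 for the interaction. With 1 library left out they ran from 6 to 12 in P301S Tia1+/- with PS19, 8 to 497 in Tia1+/- with WT (497 without WT replicate 3) and 0 to 1035 for the interaction (1035 without WT replicate 3). The cause was not tested. Over the wider set, the fit of 6 libraries called 18 of 87 in P301S Tia1+/- with PS19, and leaving out WT replicate 3 gave 2 in Tia1+/- with WT and 3 for the interaction. With 3 mice per group the smallest p that an exact permutation test of 1 gene can give is 0.1, two-sided.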
